A study of Mus musculus with 16 samples.

Results

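The 54 genes described here encode the machinery that licenses replication origins and copies DNA, and they were followed through all 16 libraries of 4 sorted cMyc+ germinal center (GC) B cell subpopulations. They were chosen by gene symbol, from a list of 9 roles, among the 51912 genes of the expression file. All 54 were found, and all 54 passed the filter of a mean normalized count of at least 10 that left 12505 genes to test. The libraries came from spleens of male and female cMyc gfp/gfp mice on a C57BL/6J background, 6 to 15 weeks old, 7 d after intraperitoneal immunization with sheep red blood cells. In these mice GFP is fused to cMyc at its own locus, and every library, whatever its subpopulation, shares this reporter, the immunization and the enrichment of CD43-negative cells. Within B220+ CD38low CD95+ cMyc-GFP+ cells, the sort gates were CD69hi for cMyc+prePB, CD23hi CD21/35hi for cMyc+early, CD23int CD21/35int for cMyc+lateCD23int and CD23lo CD21/35lo for cMyc+lateCD23lo, with 4 libraries each. In the gating that the authors describe, CD69hi cells were removed first and dark zone cells (CXCR4hi CD86lo) next. The early and late gates were then set on the remaining light zone cells. The labels do not say whether libraries came from single mice or pools, so p-values here measure the spread between these libraries.

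Before S phase, the origin recognition complex (Orc1 to Orc6) with Cdc6 and Cdt1 loads the MCM helicase ring onto DNA, a step that geminin (Gmnn) blocks once S phase has begun. Cdc45 and the GINS complex then turn the loaded ring into an active helicase, primase and the DNA polymerases copy both strands, and replication factor C (RFC) loads the sliding clamp PCNA that holds polymerases on the template. In the GC, B cells that receive help from T follicular helper cells express cMyc and prepare for rounds of division, and E2F transcription factors drive most genes of this machinery at the entry into S phase.

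The libraries held 19812080 to 25795815 reads each, recovered from the normalized counts, and every member had at least 22 reads in every library. The B cell markers Cd79a (18438 to 32113 normalized counts) and Pax5 (1758 to 3778) and the GC B cell marker Bcl6 (1238 to 4242) were above 3 reads in every library. Of the 5 T cell markers, Lck held most of the summed level (2163 to 6943 normalized counts). Cd3d was above 3 reads in 12 libraries, at up to 73.9 normalized counts, Cd3g in 3, Cd3e in 2 and Cd4 in 1. The 5 myeloid markers summed to 753 to 1261 in cMyc+lateCD23lo, 258 to 762 in cMyc+lateCD23int, 203 to 351 in cMyc+early and 282 to 797 in cMyc+prePB, mostly from Lyz2 and Cd68, while Csf1r was above 3 reads in 3 libraries and S100a8 in 2. The 4 plasma cell markers summed to 55349 to 89659, 30564 to 58707, 22716 to 29244 and 36387 to 110788 in the same order, mostly from Jchain. Among the others, Xbp1 was above 3 reads in 16 libraries, Prdm1 in 13 (at most 133 normalized counts) and Sdc1 in 3. Of erythroid genes, the globin gene Hbb-bs was at 4.30 to 1524. The part of these cells in the replication gene levels was not tested. In bulk RNA, fewer cells with a transcript and less transcript per cell cannot be told apart. Of the sorting markers, Fcer2a (CD23; limma F test adjusted p = 0.0130) and Cr2 (CD21/35; adjusted p = 0.0219) differed between the subpopulations, and Myc averaged 3823, 2503, 2079 and 1427 normalized counts in cMyc+prePB, cMyc+early, cMyc+lateCD23int and cMyc+lateCD23lo (adjusted p = 0.350, limma). The 4 libraries numbered 1, 1 of each subpopulation, had the lowest scores for 15 mitosis genes (-0.711 to -0.167, as a mean log2 difference from the mean of each gene). Taken relative to the mean of each gene over the 16 libraries, levels fell with the G+C content of the gene in these 4 libraries and in 5 others. The slopes there were -0.338 to -0.069 on the log2 scale for each 10 percentage points of G+C. Below, a correction is given for the replication score, the F test count and the member medians and counts against cMyc+lateCD23lo. It is also given for Rfc1, Tk1, Slbp and Pole2, while values of other single members, of roles and of pairs of members are not corrected.

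Per kilobase of exon, the most abundant members were Pcna (6357 normalized counts per kb on average over the 16 libraries), Rrm2 (6021), the small subunit of ribonucleotide reductase, and Rfc4 (5392). Tipin (4547), a fork protection factor, and Slbp (4379), which binds the stem-loop of replication-dependent histone mRNAs, came next. The least abundant was Pole (45.8 per kb), the catalytic subunit of DNA polymerase epsilon. Before length is taken into account, the roles were led by Mcm6 for licensing, Gins2 for origin firing, Prim1 for polymerases and primase, Pcna for clamp and clamp loader, Fen1 for single-strand binding and lagging-strand maturation, Rrm2 for deoxynucleotide supply, Slbp for replication-coupled chromatin, Ccne2 for S-phase entry and Tipin for fork protection.

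Averaged on the log2 scale, cMyc+lateCD23lo had the highest mean of the 4 subpopulations for 31 of the 54 members (57.4%), where it had the highest mean for 28.0% of all tested genes. The cMyc+early subpopulation had the highest mean for 2 members (3.70%, against 21.8% of all genes) and the lowest for 23 (42.6%, against 24.8%). The cMyc+prePB subpopulation was highest for 17 members (31.5%, against 27.9% of all genes), and cMyc+lateCD23int for 4 (7.41%, against 22.3%). In the moderated F test over the 4 subpopulations in limma, 0 of 54 members had an adjusted p under 0.05, where 0.408% of all genes did, and edgeR and DESeq2 on the recovered reads also called 0. An unadjusted p under 0.05 was reached by 17 of 54 members, against 10.2% of all genes. These were 5 of 6 genes of the clamp and clamp loader, 3 of 9 of the polymerases and primase, 3 of 12 licensing genes, 2 of 5 of deoxynucleotide supply, 1 of 7 of origin firing, 1 of 5 of single-strand binding and lagging-strand maturation, 1 of 5 of replication-coupled chromatin, 1 of 3 of S-phase entry and 0 of 2 of fork protection. The 17 became 11, 9 and 11 without cMyc+lateCD23lo replicate 2, 3 or 4, and 7 after the correction for G+C content. The share of all genes in these fits is not given, so the counts cannot be set against the 10.2%.

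**Figure D1:**
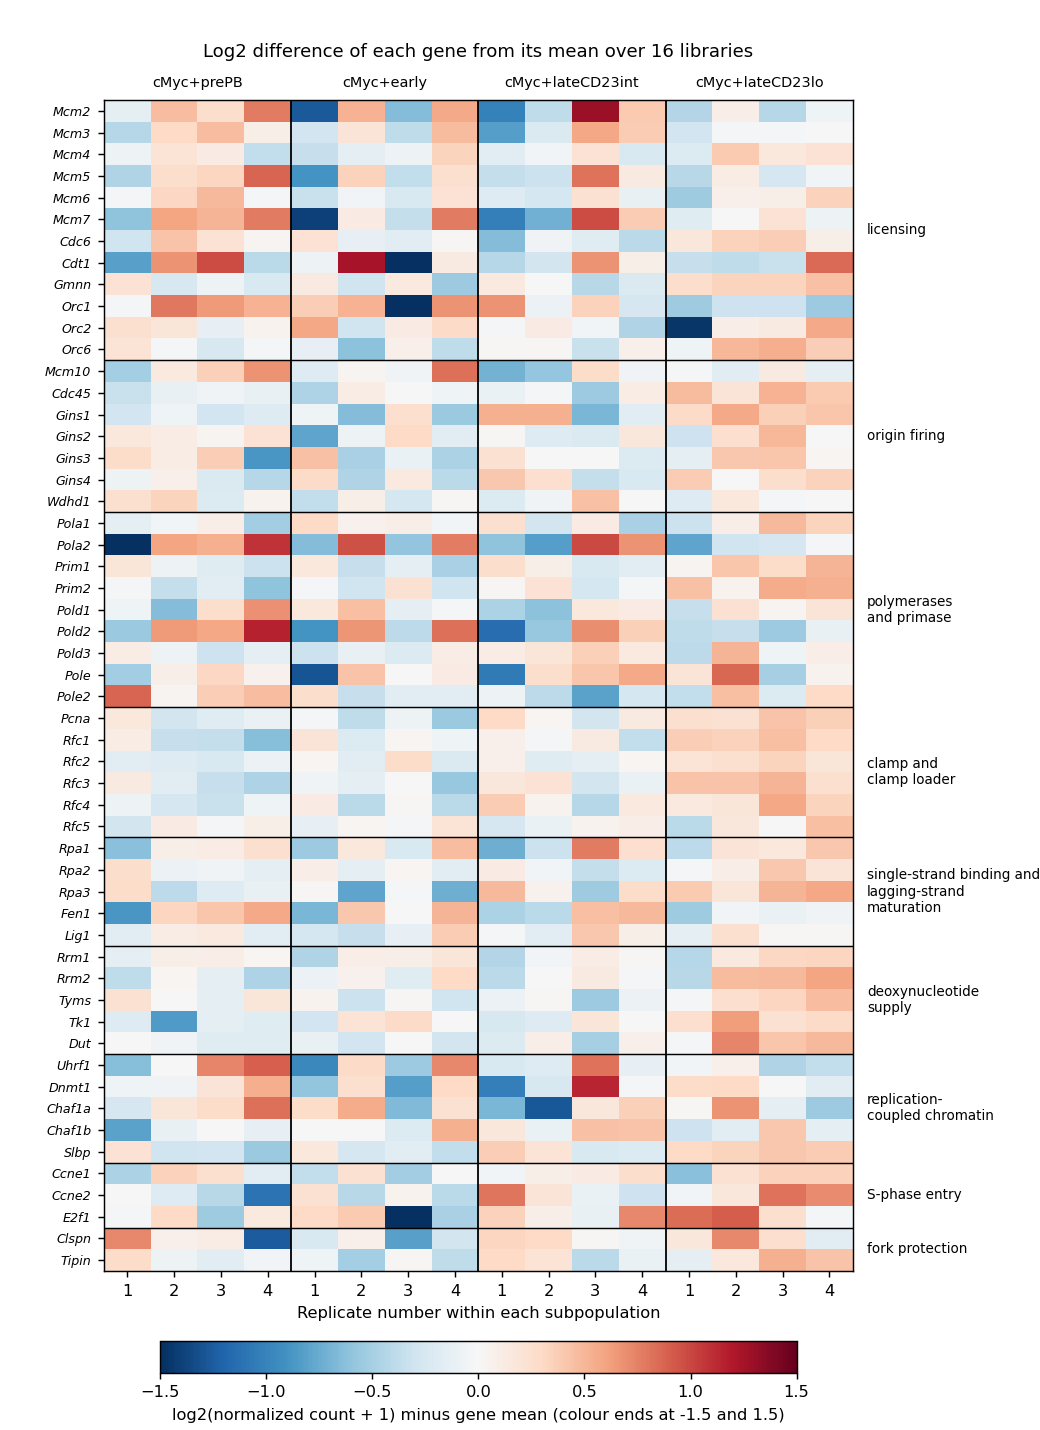
Each row is 1 of the 54 replication genes, grouped by role, and each column is 1 library. Color gives log2(normalized count + 1) minus the mean of the gene over the 16 libraries, and genes of the clamp, the clamp loader and deoxynucleotide supply are mostly above their mean in cMyc+lateCD23lo, while Mcm2, Mcm7, Pola2 and Pold2 differ widely between libraries of one subpopulation.

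All 6 members of the clamp and its loader, Pcna and Rfc1 to Rfc5, had a higher mean log2 level in cMyc+lateCD23lo than in each other subpopulation, with medians of 0.45 against cMyc+prePB, 0.43 against cMyc+early and 0.29 against cMyc+lateCD23int. Pcna, the clamp itself, lies at chr2:132249162-132253314 (GRCm38, as are all gene positions given here). It was at 16710, 12382, 13266 and 13940 normalized counts in cMyc+prePB replicates 1 to 4, at 14696, 11541, 14191 and 10178 in cMyc+early, at 18436, 15339, 12355 and 16486 in cMyc+lateCD23int and at 17693, 17543, 20213 and 19153 in cMyc+lateCD23lo. Its 4 cMyc+lateCD23lo libraries were above all libraries of cMyc+prePB and cMyc+early, and 1 cMyc+lateCD23int library lay among them. The difference of cMyc+lateCD23lo from cMyc+early was 0.57 (SE 0.15) on the log2 scale, 1.47-fold in means, with an adjusted p of 0.153 in limma.

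Rfc1 (chr5:65261850-65335670), the large subunit of the loader that opens the clamp, had the lowest F test p of the members (0.00450 unadjusted, 0.231 adjusted, limma). Its values were 7001, 5088, 5052 and 4163 in cMyc+prePB, 7395, 5629, 6597 and 6223 in cMyc+early, 6817, 6411, 7116 and 5030 in cMyc+lateCD23int and 8365, 8266, 8841 and 7958 in cMyc+lateCD23lo. Every cMyc+lateCD23lo library was above all 12 others. The cMyc+lateCD23lo mean was 1.57-fold that of cMyc+prePB, a log2 difference of 0.67 (SE 0.16, adjusted p = 0.0843 in limma), the lowest adjusted p of any member in any comparison. Without cMyc+prePB replicate 1, this comparison called 3 members, Rfc1, Rfc3 and Slbp, instead of 0. Calls over all genes also rose, from 33 of 12505 to 153 of 12507. The member count stayed at 0 when any other single library was dropped.

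Rfc3 (chr5:151642756-151651242), a small subunit of the same loader, was at 3974, 3217, 2852 and 2635 in cMyc+prePB, 3504, 3274, 3613 and 2440 in cMyc+early, 4070, 4208, 2996 and 3380 in cMyc+lateCD23int and 4875, 4858, 5151 and 4272 in cMyc+lateCD23lo. Here too the cMyc+lateCD23lo libraries did not overlap with any other subpopulation. The log2 difference was 0.61 (SE 0.17, adjusted p = 0.147) from cMyc+prePB and 0.59 (SE 0.17, adjusted p = 0.206) from cMyc+early. Rfc5 differed least in this role, with a log2 difference of 0.08 from cMyc+prePB (95% interval -0.28 to 0.43) and 0.04 from cMyc+early.

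**Figure D2:**
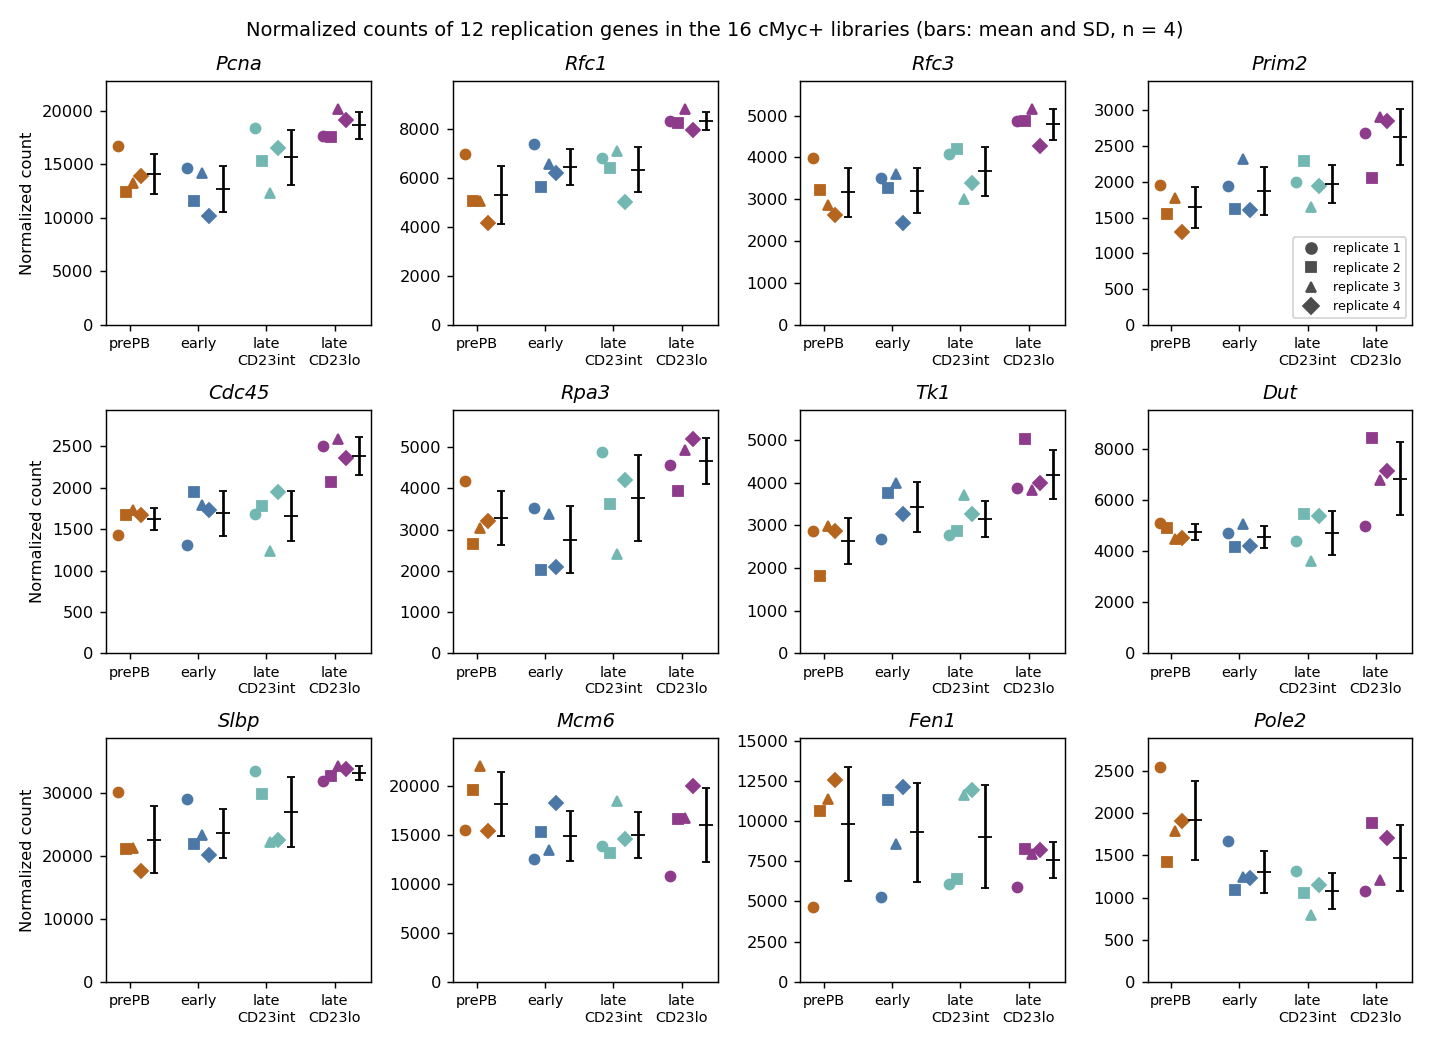
Normalized counts of 12 members in every library of the 4 subpopulations, with the mean and SD of 4 libraries beside the points and the replicate number as the marker shape. Rfc1 and Rfc3 are higher in every cMyc+lateCD23lo library than in any other library, while Fen1 ranges from 4659 to 12596 within cMyc+prePB alone.

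All 5 enzymes that supply deoxynucleotides (Rrm1, Rrm2, Tyms, Tk1 and Dut) had a higher mean in cMyc+lateCD23lo than in each other subpopulation. Tk1 (chr11:117815526-117826092), the thymidine kinase of the salvage pathway, was at 2865, 1817, 2989 and 2877 in cMyc+prePB, 2690, 3768, 3996 and 3281 in cMyc+early, 2770, 2865, 3711 and 3269 in cMyc+lateCD23int and 3886, 5042, 3822 and 3996 in cMyc+lateCD23lo. It was lowest in cMyc+prePB, whose libraries did not overlap with those of cMyc+lateCD23lo. The log2 difference between these subpopulations was 0.68 (SE 0.18), or 1.59-fold in means (limma adjusted p = 0.133).

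Dut (chr2:125247190-125258608), which removes dUTP so that uracil is not built into DNA, was at 5095, 4910, 4463 and 4496 in cMyc+prePB, 4715, 4158, 5073 and 4204 in cMyc+early, 4403, 5450, 3593 and 5349 in cMyc+lateCD23int and 4981, 8422, 6762 and 7136 in cMyc+lateCD23lo. In 3 of 4 cMyc+lateCD23lo libraries it exceeded every other library, and replicate 1 lay within the range of the others. Its log2 difference from cMyc+early was 0.57 (SE 0.17, adjusted p = 0.223 in limma).

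Rrm2, the subunit of ribonucleotide reductase whose level follows S phase, showed the same split: 12537, 16623, 14829 and 11785 in cMyc+prePB, 15292, 17019, 14364 and 19927 in cMyc+early, 12287, 16372, 17886 and 16083 in cMyc+lateCD23int and 12162, 22581, 22701 and 24478 in cMyc+lateCD23lo. Replicate 1 of cMyc+lateCD23lo was among the lowest libraries of all, and the other three were the highest. The log2 difference from cMyc+prePB was 0.52 (SE 0.20, adjusted p = 0.282 in limma).

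Among the 7 genes of origin firing, Cdc45 (chr16:18780447-18811987), the helicase co-factor, was the one with an F test p under 0.05. It was at 1424, 1672, 1734 and 1667 in cMyc+prePB, 1311, 1948, 1790 and 1726 in cMyc+early, 1683, 1778, 1237 and 1947 in cMyc+lateCD23int and 2504, 2066, 2589 and 2363 in cMyc+lateCD23lo. No other library reached the lowest of the 4 cMyc+lateCD23lo libraries. Log2 differences of cMyc+lateCD23lo were 0.55 (SE 0.18) from cMyc+prePB, 0.50 from cMyc+early and 0.53 from cMyc+lateCD23int, with adjusted p of 0.217, 0.320 and 0.699 in limma.

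Gins2, a subunit of the GINS complex, was at 2364, 2300, 2179 and 2472 in cMyc+prePB, 1227, 2014, 2616 and 1889 in cMyc+early, 2161, 1855, 1831 and 2386 in cMyc+lateCD23int and 1711, 2537, 2997 and 2144 in cMyc+lateCD23lo. All subpopulations overlapped, and the log2 difference of cMyc+lateCD23lo from cMyc+prePB was -0.02 (95% interval -0.46 to 0.43). Gins1 differed more, by 0.66 (SE 0.26) from cMyc+early on the log2 scale, with an adjusted p of 0.379 in limma.

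Of the 9 polymerase and primase genes, both primase subunits had their highest mean in cMyc+lateCD23lo and Pole2, the second subunit of polymerase epsilon, in cMyc+prePB. Prim2 (chr1:33453810-33669795), the large primase subunit, was at 1952, 1542, 1769 and 1302 in cMyc+prePB, 1941, 1612, 2321 and 1605 in cMyc+early, 1999, 2289, 1652 and 1944 in cMyc+lateCD23int and 2677, 2054, 2906 and 2850 in cMyc+lateCD23lo. It separated cMyc+lateCD23lo from cMyc+prePB without overlap, with a log2 difference of 0.68 (SE 0.18, 1.60-fold in means, adjusted p = 0.137 in limma).

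Prim1, the catalytic primase subunit, was at 5047, 4204, 3904 and 3567 in cMyc+prePB, 4955, 3486, 4044 and 3181 in cMyc+early, 5331, 4716, 3795 and 3943 in cMyc+lateCD23int and 4588, 5946, 5391 and 6329 in cMyc+lateCD23lo. The cMyc+lateCD23lo libraries overlapped with each other subpopulation, and their lowest was replicate 1. The log2 difference from cMyc+early was 0.52 (SE 0.17, adjusted p = 0.297 in limma).

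Pole2 (chr12:69201773-69228195) was highest on average in cMyc+prePB. It was at 2545, 1427, 1785 and 1906 in cMyc+prePB, 1667, 1088, 1245 and 1237 in cMyc+early, 1310, 1055, 794 and 1154 in cMyc+lateCD23int and 1072, 1888, 1204 and 1704 in cMyc+lateCD23lo. The cMyc+prePB libraries were above all cMyc+lateCD23int libraries and overlapped with the other two subpopulations. The log2 difference of cMyc+prePB minus cMyc+lateCD23int was 0.82 (SE 0.23), 1.78-fold in means, with an adjusted p of 0.243 in limma.

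Rpa3 (chr6:8255936-8259173), the smallest subunit of the single-strand binding protein RPA, was at 4182, 2641, 3038 and 3208 in cMyc+prePB, 3510, 2010, 3387 and 2088 in cMyc+early, 4867, 3623, 2401 and 4197 in cMyc+lateCD23int and 4556, 3933, 4934 and 5205 in cMyc+lateCD23lo. It was lowest in cMyc+early, with no overlap with cMyc+lateCD23lo. That difference was 0.80 (SE 0.23) on the log2 scale, 1.69-fold in means, with an adjusted p of 0.206 in limma. The same log2 difference was 0.13 (95% interval -0.48 to 0.74) for Rpa1 and 0.21 (95% interval -0.09 to 0.52) for Rpa2, and whether the subunits differed in it was not tested.

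Fen1, the flap endonuclease that trims Okazaki fragments, was at 4659, 10655, 11411 and 12596 in cMyc+prePB, 5295, 11304, 8570 and 12123 in cMyc+early, 6108, 6425, 11639 and 11946 in cMyc+lateCD23int and 5883, 8277, 7951 and 8206 in cMyc+lateCD23lo. Replicate 1 was the lowest library of every subpopulation and the subpopulations overlapped. The log2 difference of cMyc+lateCD23lo from cMyc+prePB was -0.29 (95% interval -0.95 to 0.36).

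Slbp (chr5:33634952-33652574), the most abundant replication-coupled chromatin gene, was at 30190, 21082, 21328 and 17676 in cMyc+prePB, 29106, 21836, 23263 and 20190 in cMyc+early, 33504, 29881, 22280 and 22533 in cMyc+lateCD23int and 31859, 32769, 34368 and 33802 in cMyc+lateCD23lo. Its cMyc+lateCD23lo libraries lay above all of cMyc+prePB and cMyc+early, and in those subpopulations replicate 1 was the highest. The log2 difference was 0.58 (SE 0.17, adjusted p = 0.166) from cMyc+prePB and 0.51 (SE 0.17, adjusted p = 0.307) from cMyc+early. The other genes of this role, the maintenance methyltransferase Dnmt1, its partner Uhrf1 and the histone chaperone subunits Chaf1a and Chaf1b, had F test p-values of 0.174 to 0.712 before adjustment in limma.

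Ccne2, a cyclin E that activates Cdk2 at the entry into S phase, was at 6250, 5443, 4654 and 2876 in cMyc+prePB, 7279, 4639, 6456 and 4676 in cMyc+early, 10848, 7070, 5783 and 4992 in cMyc+lateCD23int and 6049, 6990, 10907 and 10138 in cMyc+lateCD23lo. It overlapped between every pair of subpopulations. The cMyc+lateCD23lo mean was 1.77-fold that of cMyc+prePB, a log2 difference of 0.84 (SE 0.27, adjusted p = 0.216 in limma). Ccne1, the other cyclin E gene, had an F test p of 0.713 before adjustment.

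Tipin, which stabilizes stalled forks with Timeless, was at 10089, 7913, 7405 and 8117 in cMyc+prePB, 7954, 5831, 8399 and 6388 in cMyc+early, 10214, 9609, 6274 and 7749 in cMyc+lateCD23int and 7509, 9285, 12044 and 11192 in cMyc+lateCD23lo. It was lowest on average in cMyc+early, with overlap, and the log2 difference from cMyc+lateCD23lo was 0.48 (SE 0.19, adjusted p = 0.377 in limma).

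Of the 12 licensing genes, 4 had a higher mean log2 level in cMyc+lateCD23lo than in cMyc+prePB, 8 a higher one than in cMyc+early and 6 than in cMyc+lateCD23int, with median log2 differences of -0.19, 0.05 and 0.01. At an unadjusted p under 0.05, 1, 2 and 3 of the 12 were higher in cMyc+lateCD23lo, against 6.63%, 5.12% and 2.51% of all genes. In the other direction there were 0, against 6.07%, 5.20% and 3.77% of all genes. The difference between roles was not tested. Mcm6, a subunit of the MCM ring, was at 15487, 19562, 22060 and 15354 in cMyc+prePB, 12489, 15331, 13426 and 18281 in cMyc+early, 13810, 13112, 18439 and 14596 in cMyc+lateCD23int and 10841, 16566, 16698 and 19931 in cMyc+lateCD23lo. All 4 subpopulations overlapped, with an F test p of 0.427 before adjustment in limma. The other MCM subunits, Mcm2, Mcm3, Mcm4, Mcm5 and Mcm7, had F test p-values of 0.471 to 0.915 before adjustment.

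Cdc6, Gmnn and Orc6 were the licensing genes with an F test p under 0.05 before adjustment. Cdc6, a loader of the MCM ring, averaged 4117 ± 389 (SD, n = 4) in cMyc+lateCD23lo, 2800 ± 494 in cMyc+lateCD23int, 3451 ± 417 in cMyc+early and 3770 ± 773 in cMyc+prePB. Gmnn, the inhibitor of licensing, averaged 4874 ± 246, 3576 ± 609, 3554 ± 810 and 3646 ± 558 in the same order, and its cMyc+lateCD23lo libraries lay above all others. The cMyc+lateCD23lo mean of Orc6 was 1.51-fold that of cMyc+early (log2 difference 0.60, SE 0.18, adjusted p = 0.229 in limma).

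The members with the largest spread over the 16 libraries, among those with a mean of at least 100, were E2f1 (SD 0.92 on the log2 scale), Pola2 (0.81), Orc1 (0.80) and Cdt1 (0.74). E2f1, a transcription factor of S-phase genes, was at 235, 250, 21.2 and 135 in cMyc+early and at 132 to 357 in the 12 other libraries, so the lowest value stood far under the rest. Pola2, the second subunit of DNA polymerase alpha, was at 271, 1220, 1170 and 1707 in cMyc+prePB, 511, 1563, 535 and 1373 in cMyc+early, 530, 454, 1599 and 1291 in cMyc+lateCD23int and 467, 656, 674 and 793 in cMyc+lateCD23lo. Its libraries overlapped between all subpopulations, with the narrowest range in cMyc+lateCD23lo. Orc1, at 84.7, and Cdt1, at 124, were also lowest in that cMyc+early replicate 3, where the other libraries held 319 to 810 and 214 to 886. Orc1 was lower in cMyc+lateCD23lo (323, 376, 378 and 319) than in every library of cMyc+prePB (462, 810, 727 and 671), a log2 difference of -0.91 (SE 0.50) with an adjusted p of 0.461 in limma.

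Promoter windows from RefSeq (GRCm38.p6), 250 bases before to 50 after a transcript start, were given for 44 of the 54 members. They are shown for Pola2, Orc1 and Cdt1, whose levels differed most between libraries, and the window of E2f1 is left out because it lies within the annotated gene. The sequences run 5′ to 3′ on the strand of the gene, and capitals mark every match, on either strand, to 4 spellings of an E2F site (TTTCCCGC, TTTCGCGC, TTTGCCGC and TTTGGCGC), the E-box CACGTG, the CCAAT box CCAAT and the cell cycle element CHR, spelled TTTGAA.
Pola2, chr19:5964157-5964456, minus strand: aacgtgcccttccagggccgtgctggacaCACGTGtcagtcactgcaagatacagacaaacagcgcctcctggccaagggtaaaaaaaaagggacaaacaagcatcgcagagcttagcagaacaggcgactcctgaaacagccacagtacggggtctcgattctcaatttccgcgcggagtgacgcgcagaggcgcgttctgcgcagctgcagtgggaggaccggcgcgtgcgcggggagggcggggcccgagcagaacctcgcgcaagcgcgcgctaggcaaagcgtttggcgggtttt
Orc1, chr4:108579204-108579503, plus strand: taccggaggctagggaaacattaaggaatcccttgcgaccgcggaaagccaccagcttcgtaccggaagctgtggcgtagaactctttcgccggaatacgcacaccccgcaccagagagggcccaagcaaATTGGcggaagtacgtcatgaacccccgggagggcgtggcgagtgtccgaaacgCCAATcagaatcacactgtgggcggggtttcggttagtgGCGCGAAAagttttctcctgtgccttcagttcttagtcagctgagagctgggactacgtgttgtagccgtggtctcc
Cdt1, chr8:122567765-122568064, plus strand: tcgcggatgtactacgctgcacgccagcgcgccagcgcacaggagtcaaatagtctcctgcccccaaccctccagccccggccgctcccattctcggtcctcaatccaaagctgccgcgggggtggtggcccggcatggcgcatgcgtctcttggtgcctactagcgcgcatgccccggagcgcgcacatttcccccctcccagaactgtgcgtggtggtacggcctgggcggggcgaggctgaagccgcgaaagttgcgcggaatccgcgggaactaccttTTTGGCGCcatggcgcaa
The Orc1 window held an E2F match on the strand opposite to the gene and a CCAAT match on each strand, the Cdt1 window an E2F match after the start, and the Pola2 window an E-box. Over the 53 windows of members, 17 (32.1%) held an E2F match, against 2.26% of all 32851 windows. A CCAAT match stood in 31 (58.5%, against 37.4%), an E-box in 7 (13.2%, against 7.15%) and a CHR in 6 (11.3%, against 17.9%). The 17 with an E2F match came from 17 genes, among them Mcm3, Mcm5, Mcm6, Mcm7, Cdc6, Pole2, Rfc3 and Dnmt1, and 12 of the 53 windows lay wholly within the annotated gene. A match describes these letters and is not a measured binding site.

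The 6 comparisons between pairs of subpopulations share libraries, so their counts are not independent of each other. Against cMyc+lateCD23lo, cMyc+early was lower for 42 of 54 members, with a median log2 difference of 0.25 in favor of cMyc+lateCD23lo, where the median of all genes was 0.01. In limma 0 members had an adjusted p under 0.05 (0.280% of all genes did), while 16 were higher in cMyc+lateCD23lo at an unadjusted p under 0.05 (5.12% of all genes) and 0 were lower (5.20%). DESeq2 called 1, Pcna, and edgeR 0, where they called 170 and 23 of all 12505 genes. With cMyc+prePB in its place, 35 members were higher in cMyc+lateCD23lo, with a median of 0.17 (0.01 over all genes). Here limma called 0 (0.264% of all genes), with 16 higher in cMyc+lateCD23lo (6.63%) and 0 lower (6.07%) at an unadjusted p under 0.05. DESeq2 called 4, Rfc1, Rfc3, Prim2 and Tk1, and edgeR 0, where they called 270 and 31 of all 12505 genes. Between cMyc+lateCD23int and cMyc+lateCD23lo, 39 members were higher in the latter, with a median of 0.22 (-0.02 over all genes), 0 were called in limma (0.00800% of all genes), edgeR or DESeq2, and 11 were higher (2.51%) and 0 lower (3.77%) at an unadjusted p under 0.05. Those 11 became 5, 7, 7 and 7 without cMyc+lateCD23int replicate 3 or 4 or cMyc+lateCD23lo replicate 3 or 4, respectively.

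The other 3 comparisons gave few differences. From cMyc+prePB to cMyc+early, 37 members were higher in cMyc+prePB with a median log2 difference of 0.07, 0 were called by limma (0.192% of all genes), edgeR or DESeq2, and 1 was higher (Pole2, 3.81% of all genes) and 1 lower (Tk1, 4.77%) in cMyc+prePB at an unadjusted p under 0.05. These 2 became 0 without cMyc+early replicate 4 and 1 without cMyc+early replicate 2 or 3, cMyc+prePB replicate 2, cMyc+lateCD23int replicate 2 or 4 or cMyc+lateCD23lo replicate 3 or 4. Between cMyc+early and cMyc+lateCD23int, 34 were lower in cMyc+early with a median of -0.10, and limma called 0 (0.00800% of all genes), as did edgeR and DESeq2, with 0 higher (1.45%) and 0 lower (2.26%) at an unadjusted p under 0.05. Without cMyc+lateCD23int replicate 3 there were 5 of these, without cMyc+early replicate 1 or 3 there were 3 and 2, and without cMyc+early replicate 2 or 4, cMyc+prePB replicate 1 or cMyc+lateCD23int replicate 2 there was 1. Set against cMyc+lateCD23int, cMyc+prePB was higher for 29 members with a median of 0.03, which turned negative without cMyc+lateCD23int replicate 1 (-0.04) or cMyc+prePB replicate 2 (-0.04) or 3 (-0.02), and 0 were called by limma (0.144% of all genes), edgeR or DESeq2. At an unadjusted p under 0.05, Cdc6 and Pole2 were higher (2 of 54, 3.41% of all genes) and Chaf1b and Ccne2 lower (2 of 54, 5.36%) in cMyc+prePB, and the 4 became 7 without cMyc+prePB replicate 1 and 2 without cMyc+prePB replicate 3 or cMyc+lateCD23int replicate 1.

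**Figure D3:**
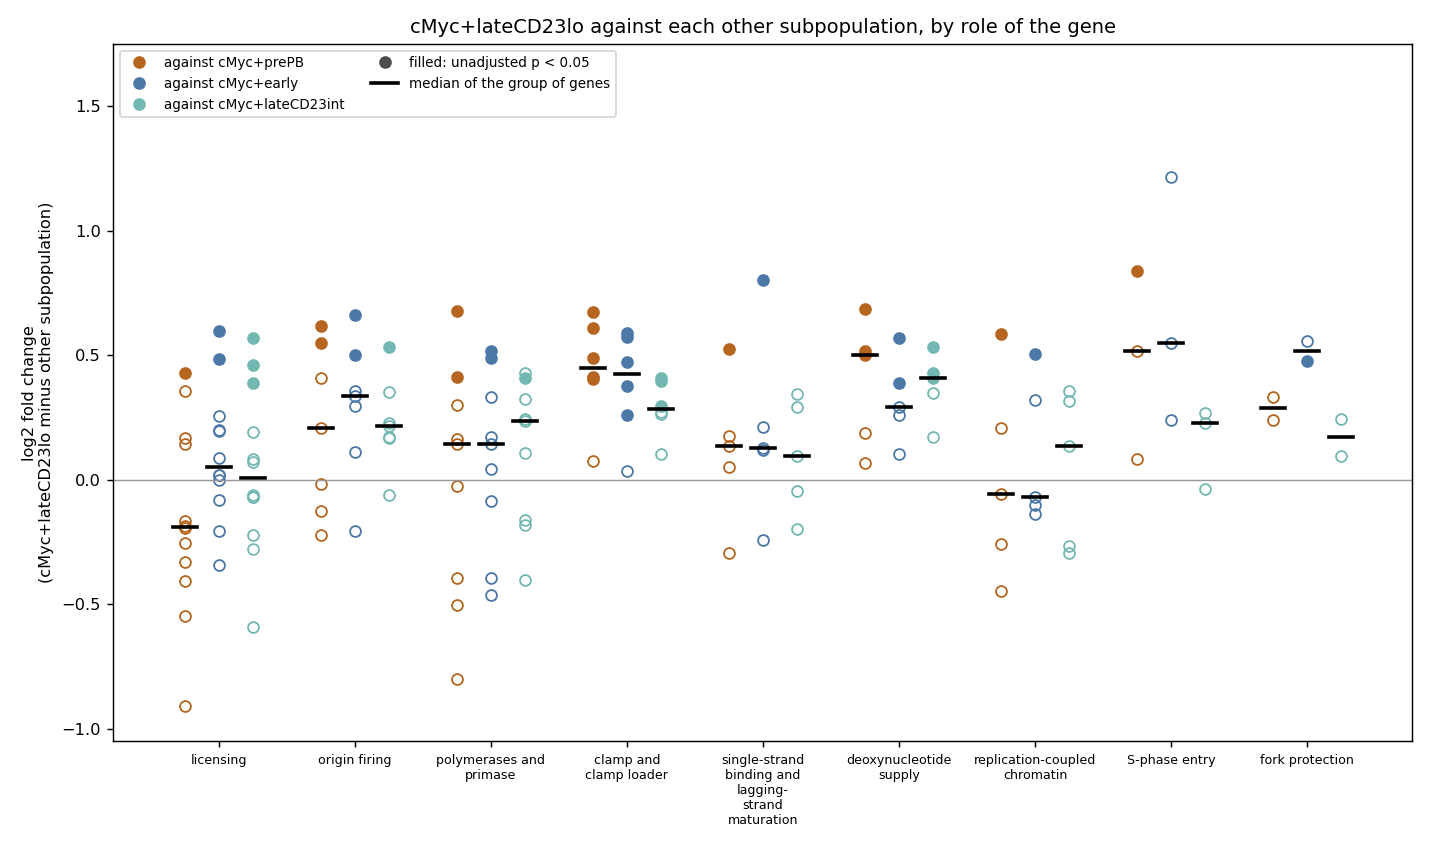
The log2 fold change of cMyc+lateCD23lo minus each other subpopulation, for each member, with members grouped by role along the horizontal axis, filled points for an unadjusted p under 0.05 and a bar at the median of each group of genes. All 6 clamp and clamp loader genes and all 5 deoxynucleotide supply genes lie above 0 in the 3 comparisons, while licensing genes spread to both sides.

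A replication score, the mean over the 54 members of the log2 level minus the mean of the gene over the libraries, put these patterns into 1 value per library. It was -0.133, 0.057, 0.068 and 0.018 in cMyc+prePB replicates 1 to 4, -0.190, -0.003, -0.252 and 0.027 in cMyc+early, -0.135, -0.110, 0.104 and 0.040 in cMyc+lateCD23int and -0.100, 0.231, 0.182 and 0.198 in cMyc+lateCD23lo. The 3 highest libraries were cMyc+lateCD23lo replicates 2 to 4, and replicate 1 lay below 0 in every subpopulation. In means, cMyc+lateCD23lo stood at 0.128 ± 0.154 (SD, n = 4), cMyc+prePB at 0.002 ± 0.093, cMyc+lateCD23int at -0.025 ± 0.116 and cMyc+early at -0.105 ± 0.137. With its replicate 1 left out and the gene means taken again over the other 15 libraries, cMyc+lateCD23lo averaged 0.197. That was the highest of its means when each of the 16 libraries was left out in turn, which ran from 0.109 to 0.197.

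**Figure D4:**
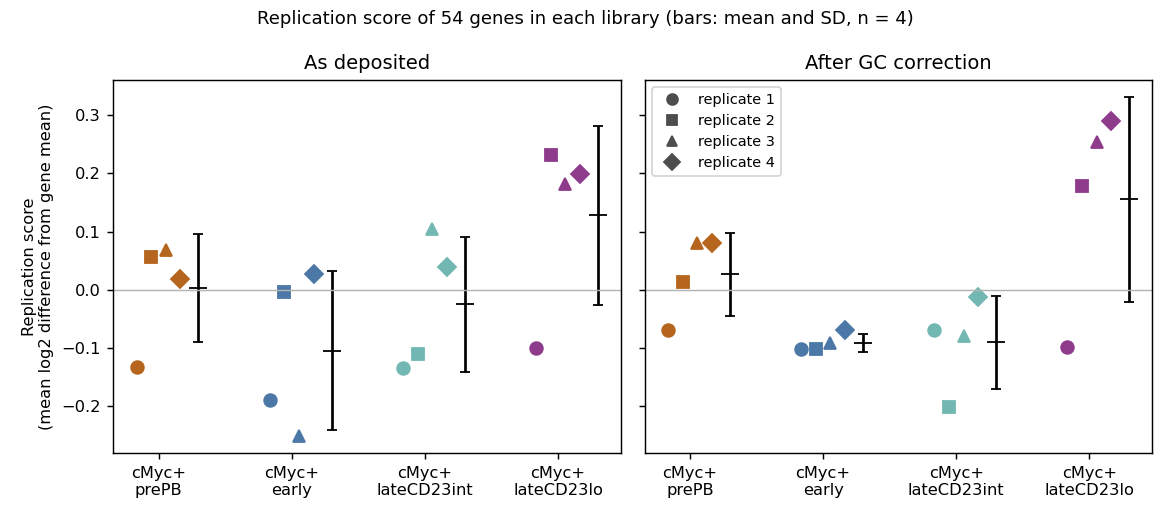
The replication score of each library, in log2 units, by subpopulation, as deposited (left) and after correction for G+C content (right), with the mean and SD of 4 libraries beside the points. After correction the 4 cMyc+early libraries sit between -0.102 and -0.069, and cMyc+lateCD23lo replicates 2 to 4 between 0.178 and 0.290. Replicate 1 of cMyc+lateCD23lo, at -0.099, lies within the range of cMyc+early.

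The main axis of variation among the members followed G+C content in part. The first principal component of the 54 genes over the 16 libraries held 46.1% of their variance, and its loadings followed the G+C content of the exons (Pearson r = 0.593 across 54 genes, which share libraries and are not independent replicates). At one end lay Pola2, Pold2, Mcm2, Mcm7, Uhrf1 and Cdt1, with G+C contents of 47.1% to 58.8%, and at the other Ccne2 (36.3%) and Rpa3 (34.2%). Pola2 had the highest loading although its G+C content was under the median of the members (49.0%). Loadings were small for Pold1 (61.0% G+C, 0.080) and E2f1 (58.3%, 0.042). Libraries with low scores on it were also those in which levels, relative to the mean of each gene, fell with G+C over all tested genes: 9 libraries were below 0 on both measures and 7 above 0 on both, with none mixed. On the component, cMyc+prePB libraries ran from -2.27 to 2.90, cMyc+early from -2.44 to 2.68, cMyc+lateCD23int from -2.84 to 3.17 and cMyc+lateCD23lo from -1.52 to -0.49. The 9 held all 4 replicates 1 and all 4 cMyc+lateCD23lo libraries, whose G+C slopes ran from -0.214 to -0.069 on the log2 scale for each 10 percentage points.

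Within members, Mcm2 shows the range: 1941, 2976, 2578 and 3700 in cMyc+prePB, 894, 3084, 1370 and 3191 in cMyc+early, 1065, 1655, 5262 and 2817 in cMyc+lateCD23int and 1590, 2309, 1597 and 2055 in cMyc+lateCD23lo. Its lowest and highest libraries were cMyc+early replicate 1 and cMyc+lateCD23int replicate 3, and each subpopulation overlapped with the rest. Across the 16 libraries, Mcm2 varied with Mcm5 (r = 0.933), Mcm7 (0.908) and Pold2 (0.906), Pola2 with Fen1 (0.950), and Pcna with Rpa3 (0.974) and Rfc4 (0.924), while Pold2 and Slbp were opposed (-0.870). Of the 1431 pairs of members, 325 had an r over 0.5 and 148 an r under -0.5.

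**Figure D5:**
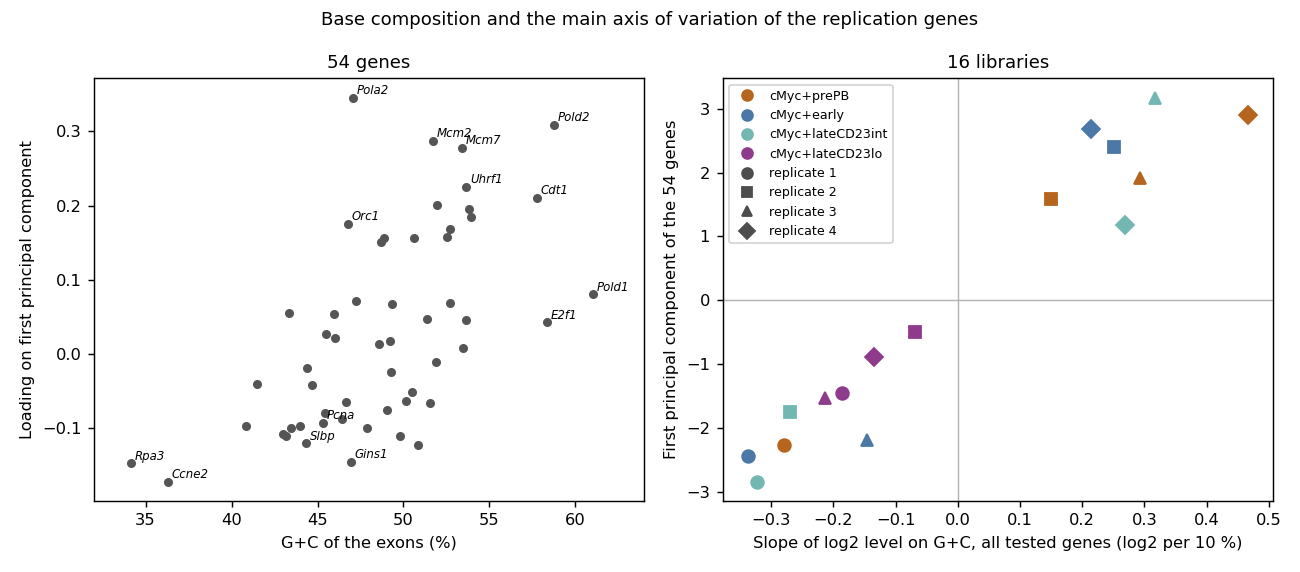
Left, the loading of each of the 54 genes on their first principal component against the G+C content of the exons in percent. Right, the position of each of the 16 libraries on that component against the slope on G+C content of the log2 level minus the mean of the gene, over all tested genes, with color for the subpopulation and marker shape for the replicate number, where no library is above 0 on one measure and below 0 on the other.

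All 4 cMyc+lateCD23lo libraries had G+C slopes below 0, and the levels were corrected for G+C content in each library, a step chosen after the data were seen. The part of G+C content in the cMyc+lateCD23lo difference was not tested. The median log2 difference of the members in favor of cMyc+lateCD23lo was then 0.28 against cMyc+lateCD23int, 0.29 against cMyc+early and 0.16 against cMyc+prePB, where it was 0.22, 0.25 and 0.17 before. Of the 54 members, 44, 45 and 38 were then higher in cMyc+lateCD23lo, where 39, 42 and 35 were before. The number with an unadjusted p under 0.05 in that direction fell from 11, 16 and 16 to 6, 9 and 8, against 3.06%, 4.07% and 4.72% of the 12471 genes with a G+C value, and 0 had an adjusted p under 0.05. The corrected log2 difference of cMyc+prePB minus cMyc+lateCD23lo was -0.57 for Rfc1, -0.81 for Tk1 and -0.45 for Slbp, with adjusted p of 0.190 for Rfc1 and 0.151 for Tk1 in limma and a higher one for Slbp. For Pole2, cMyc+prePB minus cMyc+lateCD23int was 0.96 after the correction, with an adjusted p of 0.378.

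Beyond the members, 50 other replication genes were read in the same fit. Of these, 10 had an F test p under 0.05 before adjustment, and 1 passed a pairwise test: Asf1b, a histone chaperone at the fork, averaged 19102 ± 1217 (SD, n = 4) in cMyc+lateCD23lo, 13904 ± 1144 in cMyc+lateCD23int, 14361 ± 2037 in cMyc+early and 12305 ± 1134 in cMyc+prePB. The log2 difference of cMyc+prePB minus cMyc+lateCD23lo was -0.64 with an adjusted p of 0.0344 in limma. At an unadjusted p under 0.05, 10 of the 50 were higher (6.63% of all genes) and 1 lower (6.07%) in cMyc+lateCD23lo than in cMyc+prePB. Against cMyc+early, 9 were higher (5.12%) and 0 lower (5.20%) in cMyc+lateCD23lo. Of 15 genes of mitosis, 5 (33.3%, against 10.2% of all genes) had an F test p under 0.05 before adjustment and 0 after it. All 15 had a lower mean log2 level in cMyc+prePB than in cMyc+early, as did 48.8% of all genes. In cMyc+lateCD23lo, 14 of the 15 had a higher mean log2 level than in cMyc+lateCD23int, 13 than in cMyc+prePB and 5 than in cMyc+early. Of these, 2, 6 and 1 had an unadjusted p under 0.05, against 2.51%, 6.63% and 5.12% of all genes in that direction. Their mean log2 score was -0.711 in cMyc+lateCD23lo replicate 1 and 0.189 to 0.553 in its other replicates. Of 7 genes of CDK inhibitors, 4 passed the filter and 0 had an F test p under 0.05, adjusted or not.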

How the data were processed

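RNA-seq was deposited for 16 libraries of sorted splenic cMyc+ GC B cells, 4 of each subpopulation. Per the labels, the submitters' processing notes name Trimmomatic 0.36, STAR 2.5.2a, RSEM 1.2.31, DESeq2 1.20.0 in R 3.5.1 and GRCm38. The deposited values, used here as a signal per gene, are counts that the authors divided by a size factor per library, so that 100% of values were whole multiples of 1 read (tolerance 0.001) and reads could be recovered. A floor of 3 reads was 2.48 to 3.23 normalized counts, and such limits cover counting error only. Genes with a mean of at least 10 were tested on log2(normalized count + 1), in which fold changes of low genes are understated, with limma 3.58.1 (R 4.3.3, mean-variance trend) on all 16 libraries, in 6 pairwise contrasts and a moderated F test, two-sided, with Benjamini-Hochberg adjustment over all 12505 genes. The edgeR 4.0.16 quasi-likelihood test and DESeq2 1.42.0 on the recovered reads were alternatives, and the fits were tested on simulated data. G+C content and gene positions came from GENCODE M21, and the correction for G+C subtracted a loess curve (span 0.5) per library. The strand setting of the counting is not given in the sources used here. The members, roles and gene lists were chosen with earlier results of these data known. Genes described singly were the most abundant of each role, the 10 with the lowest F test p and the 4 with the largest spread, with others named where a count turned on them after their values were seen. Some marker genes are not reported here.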

Additional observations from a re-analysis of the deposited data

Results flagged for a closer look

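In 108 sets of 4 libraries of 1 subpopulation, covering single genes and scores, 6 had 1 library far from the other three by Dixon's gap criterion, where chance gives about 1 in 20. In cMyc+lateCD23lo, replicate 1 was the distant library in 4 of the 6. Its replication score was -0.100, against 0.182 to 0.231 in the other libraries, and its deoxynucleotide supply score was -0.131, against 0.350 to 0.443. It held 12162 normalized counts of Rrm2, against 22581 to 24478, and 5883 of Fen1, against 7951 to 8277. The same library had a mitosis score of -0.711, the lowest of all 16, and its part in these values was not tested. For Tk1, cMyc+prePB replicate 2 was low at 1817, against 2865 to 2989, and cMyc+lateCD23lo replicate 2 was high at 5042, against 3822 to 3996.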

How the results depend on the processing

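The number of members with an adjusted p under 0.05 was 0 in all 6 comparisons, and it moved in 2 of them. For cMyc+prePB against cMyc+lateCD23lo it was 3 with the replicate number as a block (Rfc1, Rfc3 and Slbp), 2 in edgeR with the replicate block (Rfc1 and Slbp), 4 in DESeq2 and 0 to 3 when each library was left out in turn. For cMyc+early against cMyc+lateCD23lo it was 1 in DESeq2, and the cause was not tested. Over all genes the calls moved by more: those for cMyc+prePB against cMyc+lateCD23lo were 33, against 13 with only the groups compared, 18 after the correction for G+C, 142 in edgeR with the block, 192 with the block, 270 in DESeq2 and 16 to 153 without 1 library. The calls were 35 for cMyc+early against cMyc+lateCD23lo (13 to 170 over the alternatives), 24 for cMyc+prePB against cMyc+early (0 to 131), 18 for cMyc+prePB against cMyc+lateCD23int (8 to 130), 1 for cMyc+early against cMyc+lateCD23int (0 to 20) and 1 for cMyc+lateCD23int against cMyc+lateCD23lo (0 to 14), each highest in DESeq2. The replicate numbers were not taken to pair the libraries, since the labels name no shared litter or batch. The correlation of deviations was over 0.1 in 5 of 24 same-numbered pairs, which does not settle whether they were paired. These pairs had a mean correlation of 0.051 (-0.129 to 0.174) over all genes and 0.128 (-0.586 to 0.806, 10 over 0.1) over the members. Differently numbered pairs from different subpopulations had means of -0.017 and -0.042. Over all genes, 10 of 16 libraries were closest to their own number, a hint of pairing from the data. The 180 alternative values of median differences and 92 of the score moved by less than the spread between libraries (0.127, the pooled SD of the score within groups). That limit was larger than the median for cMyc+prePB against cMyc+early (0.07) or cMyc+lateCD23int (0.03), and than the size of that for cMyc+early against cMyc+lateCD23int (-0.10). It therefore cannot show whether these medians held. With 1 library left out the score crossed 0 in cMyc+prePB (-0.015 to 0.039) and cMyc+lateCD23int (-0.062 to 0.002). Counts at an unadjusted p under 0.05 moved by over 1.5 times in 46 of 209 alternatives. Depth was 19812080 to 25795815 reads, and with 4 libraries a group the SE of a member's log2 difference ranged from 0.12 for Rfc2 to 0.59 for E2f1.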
